A study of Arabidopsis thaliana with 9 samples.

Results

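Submergence in still water was compared with the control in rosettes of *Arabidopsis thaliana*, which takes up 6 of the 9 RNA-Seq samples of the series. The 3 submergence samples and the 3 control samples came from shoots of wild-type Columbia-0 plants about 4 weeks old, grown on peat pellets, and each sample pooled the rosettes of 10 plants. Submerged plants were kept for 30 min under 10 cm of water without flow, in a plastic container. How the control plants were moved and handled is not given in the sources used here. Of the 32833 genes with expression values (FPKM, fragments scaled to exon length and to the mapped reads of a library), 18814 had a mean FPKM of at least 0.5 over these 6 samples and were compared, and 8093 were listed at 0 in all 6. The remaining 3 samples, from plants under water flowing at 8 L/s, are used only where flooding is named.

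Water slows the exchange of gases between a leaf and its surroundings, so that oxygen can fall and the gaseous hormone ethylene can build up in submerged tissue. Low oxygen stabilizes a small group of ethylene response factors (RAP2.2, RAP2.3 and RAP2.12), which switch on genes of fermentation such as PDC1 (pyruvate decarboxylase) and ADH1 (alcohol dehydrogenase). Wetting and bending of leaves are also known to raise calcium in the cytosol within seconds and to switch on the touch (TCH) genes, and a similar early program of calcium sensors, kinases and transcription factors follows wounding and microbial signals.

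A transcript is called up- or down-regulated here where limma on log2(FPKM + 0.1) gave it an adjusted p (Benjamini-Hochberg) below 0.05, and every adjusted p given comes from that fit, on 3 samples against 3. By this rule 17.5% of the tested genes were called, 9.03% up and 8.45% down, and with a fold of at least 2 as well 4.65% and 1.15%. Means are given ± SD over 3 samples. All log2 fold changes are on the log2(FPKM + 0.1) scale, which understates the change of weakly expressed genes. Over all genes compared, the median change was -0.03 on this scale. Log2 values correlated across genes with r of 0.955 to 0.982 between samples of the same group, and the least similar pair of a group was submergence 1 and submergence 3. The number of reads behind each FPKM value is not known, so the spread between samples is the only error given.

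**Figure D1:**
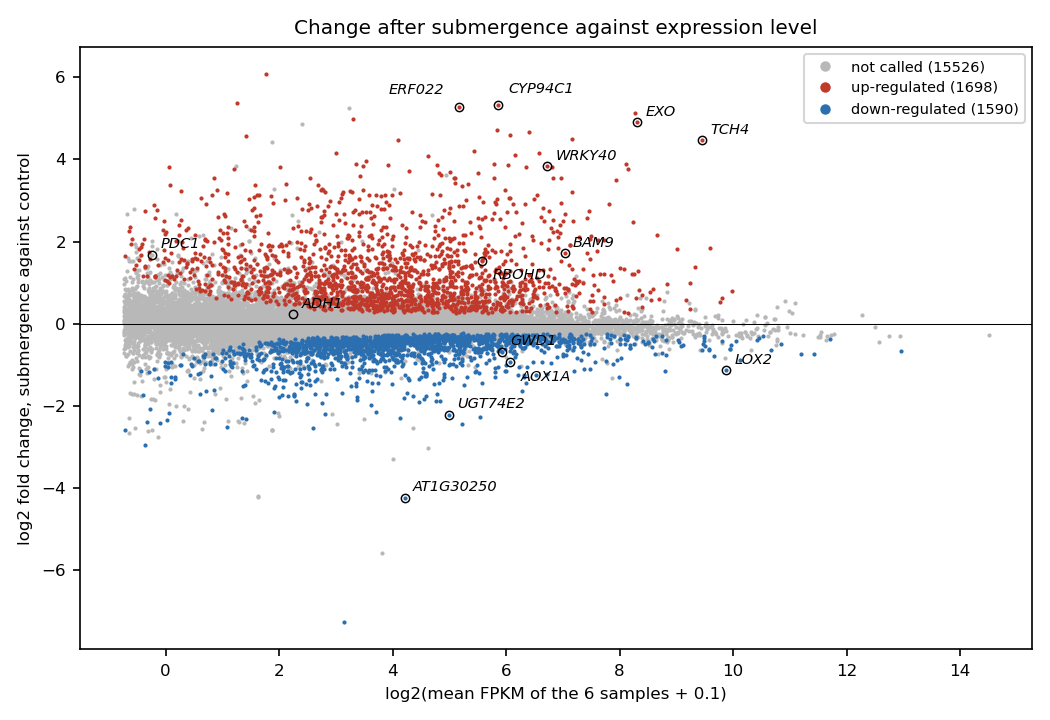
Log2 fold change of submergence against control (vertical axis) against log2 of the mean FPKM of the 6 samples plus 0.1 (horizontal axis) for the 18814 tested genes, with one point per gene. Red points were up-regulated, blue points down-regulated and grey points not called. The rises reach further from 0 than the falls over most of the range of expression, and PDC1 and ADH1 lie among the genes not called.

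The steepest rises were those of transcription factors, cell wall proteins and hormone-degrading enzymes. The 12 largest rises were taken among called genes with a mean of at least 5 FPKM in either group and no overlap between the groups. Leading them among the protein-coding genes was CYP94C1 (AT2G27690), a cytochrome P450 that oxidizes the active jasmonate hormone, which stood at 1.73, 2.97 and 2.89 FPKM in the control and 80.1, 69.7 and 190.4 FPKM in the submergence samples. All 3 submergence samples lay far above the controls, with submergence 3 the highest (log2 fold change 5.32, standard error 0.39, adjusted p = 0.000764). ERF022 (AT1G33760), a transcription factor of the AP2/ERF family, was at 2.03, 0.88 and 2.18 FPKM in the control and 45.8, 112 and 53.5 FPKM in the submergence samples. Its groups were also far apart, but here submergence 2 was the highest (log2 fold change 5.28, standard error 0.43, adjusted p = 0.000893). CYP707A3 (AT5G45340), which hydroxylates and so inactivates abscisic acid, was at 7.89, 3.81 and 7.24 FPKM in the control and 116, 232 and 140.5 FPKM in the submergence samples, again without overlap (log2 fold change 4.67, standard error 0.34, adjusted p = 0.000762).

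EXL1 (AT1G35140) and EXO (AT4G08950), related members of the EXORDIUM family of apoplastic growth proteins, rose together. EXL1 was at 7.84, 22.2 and 24.5 FPKM in the control and 359, 820.4 and 625 FPKM in the submergence samples, and EXO was at 12.1, 26.3 and 25.2 FPKM in the control and 475, 725 and 637 FPKM in the submergence samples. Submergence 1 was the lowest of the submergence samples for both genes, and control 1 the lowest of the controls (log2 fold change 5.12, standard error 0.48, adjusted p = 0.0013 for EXL1 and log2 fold change 4.90, standard error 0.31, adjusted p = 0.000647 for EXO). XTH18 (AT4G30280) and XTH22 (AT5G57560, the touch gene TCH4) encode enzymes that cut and rejoin xyloglucan in the cell wall. XTH18 was at 1.73, 4.05 and 6.14 FPKM in the control and 41.0, 153 and 135 FPKM in the submergence samples, and its close copies XTH17 and XTH19 resemble it enough that reads may have been shared among them. The rest of the 12 were ERF012, ERF105, the SAUR-like gene AT3G09870, AT4G02170 (annotated as a cotton fiber protein) and the small nucleolar RNA gene AT5G08865. For AT5G08865 the controls were listed at 0 and the submergence samples at 6.71, 6.08 and 7.10 FPKM, so no fold is given. ERF105 lies wholly within AT5G51180, a gene of the opposite strand that was at 10.51 FPKM in the control and 8.91 FPKM in the submergence samples and was not called. Whether reads were counted by strand is not given in the sources used here.

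Of the 11 protein-coding genes among these 12, EXL1, XTH18 and AT4G02170 hold the letters CGCGTT near the annotated start of the gene, on either strand. The window ran from 250 bases before to 50 bases after the start, and AT5G08865 was not searched. CGCGTT is the core of the rapid stress response element, a sequence known to drive fast transcription after wounding and cold and to be bound by calmodulin-binding CAMTA factors. The 200 bases before each start are shown because these genes are those of the 11 with the element. The bases run 5′ to 3′ on the strand of the gene, in TAIR10 coordinates from the RefSeq genome. The core (or its reverse complement AACGCG) is in capitals.
EXL1, chromosome 1, plus strand, chr1:12851783-12851982: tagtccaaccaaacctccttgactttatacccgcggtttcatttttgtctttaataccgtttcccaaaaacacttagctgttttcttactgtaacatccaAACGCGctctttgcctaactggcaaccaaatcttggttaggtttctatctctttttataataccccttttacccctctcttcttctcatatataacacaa
XTH18, chromosome 4, minus strand, chr4:14827212-14827411: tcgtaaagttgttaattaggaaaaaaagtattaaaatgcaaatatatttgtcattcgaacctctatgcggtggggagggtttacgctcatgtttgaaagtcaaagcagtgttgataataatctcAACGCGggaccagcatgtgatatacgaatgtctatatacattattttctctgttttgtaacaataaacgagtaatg
AT4G02170, chromosome 4, plus strand, chr4:957845-958044: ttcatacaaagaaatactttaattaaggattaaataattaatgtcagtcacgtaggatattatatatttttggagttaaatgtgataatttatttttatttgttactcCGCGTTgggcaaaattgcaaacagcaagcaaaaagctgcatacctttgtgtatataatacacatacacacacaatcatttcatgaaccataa
The core begins 100 bases before the start of EXL1, 76 bases before that of XTH18 and 92 bases before that of AT4G02170. In EXL1 and XTH18 it reads as the reverse complement on the gene's strand.

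Across all promoters of the same length, the element was more frequent among up-regulated genes. CGCGTT was found in 10.6% of the 1682 promoters of up-regulated protein-coding genes, in 2.02% of the 1535 of down-regulated genes and in 3.87% of all 18208 tested. Among the 282 up-regulated genes with a log2 fold change of at least 2 the share was 17.7%, and among the 205 down-regulated genes with a log2 fold change of -1 or lower it was 0.976%. The W-box, the site of WRKY factors, followed the same order. Its form TTGACT was in 30.1% of up-regulated, 19.0% of down-regulated and 21.7% of all promoters, and its form TTGACC in 18.8%, 11.9% and 14.4%. The evening element AAAATATCT, a site of clock proteins, was instead most frequent among down-regulated genes, with 5.54% against 2.85% of up-regulated and 3.12% of all promoters. The GCC-box GCCGCC, a site of ERF factors, had the same order, with 3.45% of down-regulated, 1.96% of up-regulated and 2.71% of all promoters. That order did not hold for large changes. The GCC-box was in 3.90% of up-regulated promoters with a log2 fold change of at least 2. It was also in 3.90% of down-regulated promoters with a log2 fold change of -1 or lower. Shares for the other motifs were 10.3% up, 9.19% down and 9.02% of all for the G-box CACGTG, 15.4%, 15.6% and 16.5% for the dehydration-responsive core CCGAC, 14.3%, 12.4% and 13.5% for the auxin response element TGTCTC and 53.6%, 49.5% and 50.8% for the TATA box TATAAA. Both strands were searched for every motif, and no motif contains another. These are descriptions of letters in a window and carry no test.

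**Figure D2:**
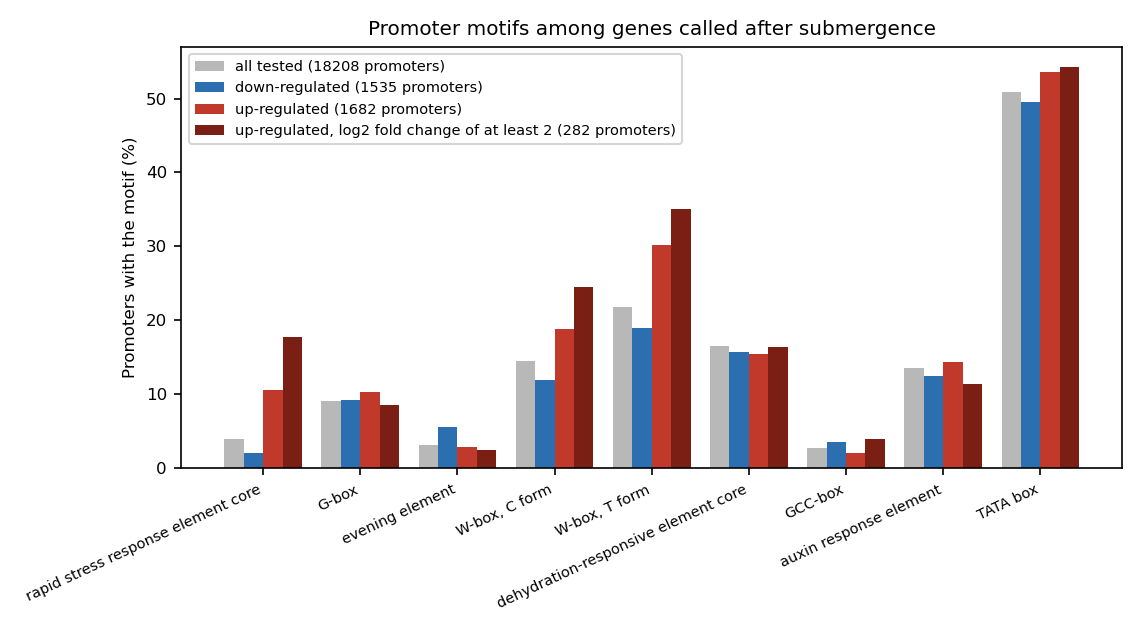
Share of promoters (vertical axis, %) holding each of 9 motifs on either strand, for all tested protein-coding genes (grey), down-regulated genes (blue), up-regulated genes (red) and up-regulated genes with a log2 fold change of at least 2 (dark red). The rapid stress response element core climbs from 2.02% in the down-regulated to 17.7% in the most strongly up-regulated genes, while the TATA box lies between 49.5% and 54.3% in every set.

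Called genes had a single exon more often than all tested genes. The share with a single exon was 25.6% among up-regulated and 22.9% among down-regulated protein-coding genes, against 14.5% of all tested. With a log2 fold change of at least 2 it was 48.6%, and the median genomic span was 1672.5 bp, against 2426 bp for all tested genes. The median expression level of the up-regulated genes (15.3 FPKM) and of the down-regulated genes (17.1 FPKM) was above that of all tested (11.1 FPKM).

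Nearly all tested members of the touch and calcium sensor list, chosen with earlier results of these data known, rose. Of 17 tested members, 14 rose and 0 fell, with a median log2 fold change of 2.38, against the background of 9.03% up and 8.45% down. XTH22 (TCH4), the highest expressed of the large rises, was at 37.4, 60.4 and 86.8 FPKM in the control and 911, 1713 and 1396 FPKM in the submergence samples (log2 fold change 4.48, standard error 0.34, adjusted p = 0.000788). CML24 (TCH2), a calmodulin-like calcium sensor, was at 33.1, 31.7 and 34.0 FPKM in the control and 151, 242 and 185 FPKM in the submergence samples (log2 fold change 2.52, standard error 0.16, adjusted p = 0.000657). CML12 (TCH3), another sensor of this family and already strongly expressed in the controls, was at 300.5, 284 and 414 FPKM in the control and 892, 1256 and 1471 FPKM in the submergence samples (log2 fold change 1.85, standard error 0.22, adjusted p = 0.00266). In all 3 genes the groups were separate, as they were above the controls in 16.6% and below them in 21.9% of all tested genes, and submergence 1 was the lowest submergence sample. The same held for every one of the 14 risen members, in each of which submergence 1 was lowest and submergence 2 (11 genes) or submergence 3 (3 genes) highest. Kinases that read calcium rose too, CPK32 from a mean of 34.5 ± 2.24 to 229 ± 73.1 FPKM and CPK28 from 26.6 ± 1.77 to 168 ± 51.7 FPKM (log2 fold changes 2.67 and 2.60). Of the members that did not pass, CML41 was at 72.6 ± 20.2 FPKM in control and 113 ± 70.4 FPKM in submergence (adjusted p = 0.723), and CML47 and CML39 had log2 fold changes of -0.42 and -0.06. Genes with calmodulin-like or EF-hand in their product name were grouped after the values had been seen. In that wider group 15 of 53 tested genes rose and 3 fell (28.3% and 5.66%), with a median log2 fold change of 0.10.

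Zinc finger and stress-related ERF transcription factor genes rose in large part. Both lists were chosen with earlier results of these data known. Among 12 zinc finger genes of the ZAT and AZF group, most of them repressors of transcription, 10 rose and 0 fell (median log2 fold change 2.58). ZAT7 showed the largest rise of them, from a mean of 4.07 ± 1.38 to 81.9 ± 44.0 FPKM (log2 fold change 4.199, standard error 0.45, adjusted p = 0.00197), though its close copy ZAT8 makes the split of reads between them uncertain. ZAT10 was at 7.52, 4.89 and 6.75 FPKM in the control and 43.8, 93.0 and 68.0 FPKM in the submergence samples, with every submergence sample above the controls (log2 fold change 3.35, standard error 0.28, adjusted p = 0.000993), and ZAT12 rose from 16.4 ± 2.55 to 102 ± 44.6 FPKM on average. Over all genes with C2H2 in their product name, grouped after the values had been seen, 8 of 44 tested rose and 2 fell. Those shares were 18.2% and 4.55%, against 9.03% and 8.45% of all genes, and the median log2 fold change was 0.04. Of 21 stress-related ERF genes tested, 13 rose and 0 fell (median 2.51), including ERF104 (log2 fold change 3.55), ERF6 (3.07), ERF1A (2.82) and ERF5 (2.51). The highest mean of these was reached by ERF105, at 12.5 ± 6.20 FPKM in control and 275 ± 143 FPKM in submergence. ERF4, a repressor, was at 25.3 ± 3.92 and 48.0 ± 19.8 FPKM and did not pass (adjusted p = 0.136).

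WRKY factors, named for the sequence of their DNA-binding domain, rose in part. Of 20 tested in a list chosen with earlier results of these data known, 10 rose and 0 fell, with a median log2 fold change of 0.82. WRKY18 was at 28.8, 31.9 and 43.6 FPKM in the control and 365, 551 and 646 FPKM in the submergence samples (log2 fold change 3.88, standard error 0.24, adjusted p = 0.000593), and WRKY40, its partner in pathogen signalling, at 14.7, 8.36 and 17.63 FPKM in the control and 112, 225 and 253 FPKM in the submergence samples (log2 fold change 3.83, standard error 0.37, adjusted p = 0.00142). Submergence samples lay above all controls in both, with submergence 1 lowest and submergence 3 highest. WRKY33, which governs camalexin synthesis, rose from 48.3 ± 7.16 to 296 ± 89.9 FPKM, and WRKY70 from 22.1 ± 5.57 to 77.2 ± 4.96 FPKM. By contrast WRKY25 was at 63.5 ± 10.01 and 69.2 ± 20.04 FPKM and WRKY26 at 49.6 ± 1.19 and 55.6 ± 22.2 FPKM (log2 fold changes 0.09 and 0.08), and neither passed. Over the whole family, grouped by product name after the values had been seen, 10 of 46 tested genes rose and 1 fell. Those shares were 21.7% and 2.17%, against 9.03% and 8.45% of all genes, and the median log2 fold change was 0.15.

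Genes of MAP kinase cascades rose in part. Of 17 tested members of MAP kinase cascades 10 rose and 0 fell (median 0.75). MPK3 was at 77.0, 63.3 and 60.7 FPKM in the control and 188, 361 and 316 FPKM in the submergence samples, without overlap (log2 fold change 2.06, standard error 0.24, adjusted p = 0.00254). Its relatives MPK6 (35.6 ± 1.08 and 35.2 ± 2.40 FPKM) and MPK4 (20.6 ± 0.929 and 20.6 ± 1.27 FPKM) did not pass. MKK9, a kinase that activates MPK3 and MPK6, rose from 17.0 ± 1.48 to 59.0 ± 7.89 FPKM, and the largest rise was that of MAPKKK14 (log2 fold change 2.39). Without control 2, 5 of the list rose and 0 fell.

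RBOHD, the NADPH oxidase that makes apoplastic superoxide in leaves, was the only respiratory burst oxidase to rise among the 3 of 10 that were expressed enough to be tested. It was at 26.9, 22.7 and 23.2 FPKM in the control and 58.1, 79.2 and 74.99 FPKM in the submergence samples (log2 fold change 1.53, standard error 0.13, adjusted p = 0.00111), and every submergence sample was far above the highest control. RBOHF was at 7.45, 8.39 and 6.93 FPKM in the control and 8.54, 14.1 and 22.9 FPKM in the submergence samples and did not pass (log2 fold change 0.88, adjusted p = 0.109), although its submergence samples were above all controls. RBOHC was weakly expressed, at 0.45, 0.42 and 0.25 FPKM in the control and 0.16, 0.68 and 1.29 FPKM in the submergence samples, and its groups overlapped. The enzymes that remove reactive oxygen, grouped with the alternative oxidases as in the paper, fell or did not pass. Of 27 tested, 0 rose and 7 fell by limma (2 upward and 11 downward at an unadjusted p under 0.05), and the median log2 fold change was -0.22. AOX1A, the alternative oxidase of mitochondria, fell furthest, with 88.2, 91.4 and 84.6 FPKM in the control and 39.7, 47.5 and 50.6 FPKM in the submergence samples and no overlap (log2 fold change -0.94, standard error 0.10, adjusted p = 0.00197). DHAR2 (log2 fold change -0.71), MDAR2 (-0.46) and APX1 (-0.45), enzymes of the ascorbate cycle, fell less (MDAR2 was not called without control 1, 2 or 3 at 0.0593 to 0.079, nor APX1 without control 2 at 0.059), and the abundant catalase genes CAT3 (1521 ± 243 and 1488 ± 319.6 FPKM) and CAT2 (530.2 ± 39.0 and 545 ± 36.3 FPKM) did not pass. Leaving out control 1, control 2, control 3, submergence 2 or submergence 3 in turn gave 0 rises and 4, 2, 3, 4 and 4 falls in the list.

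**Figure D3:**
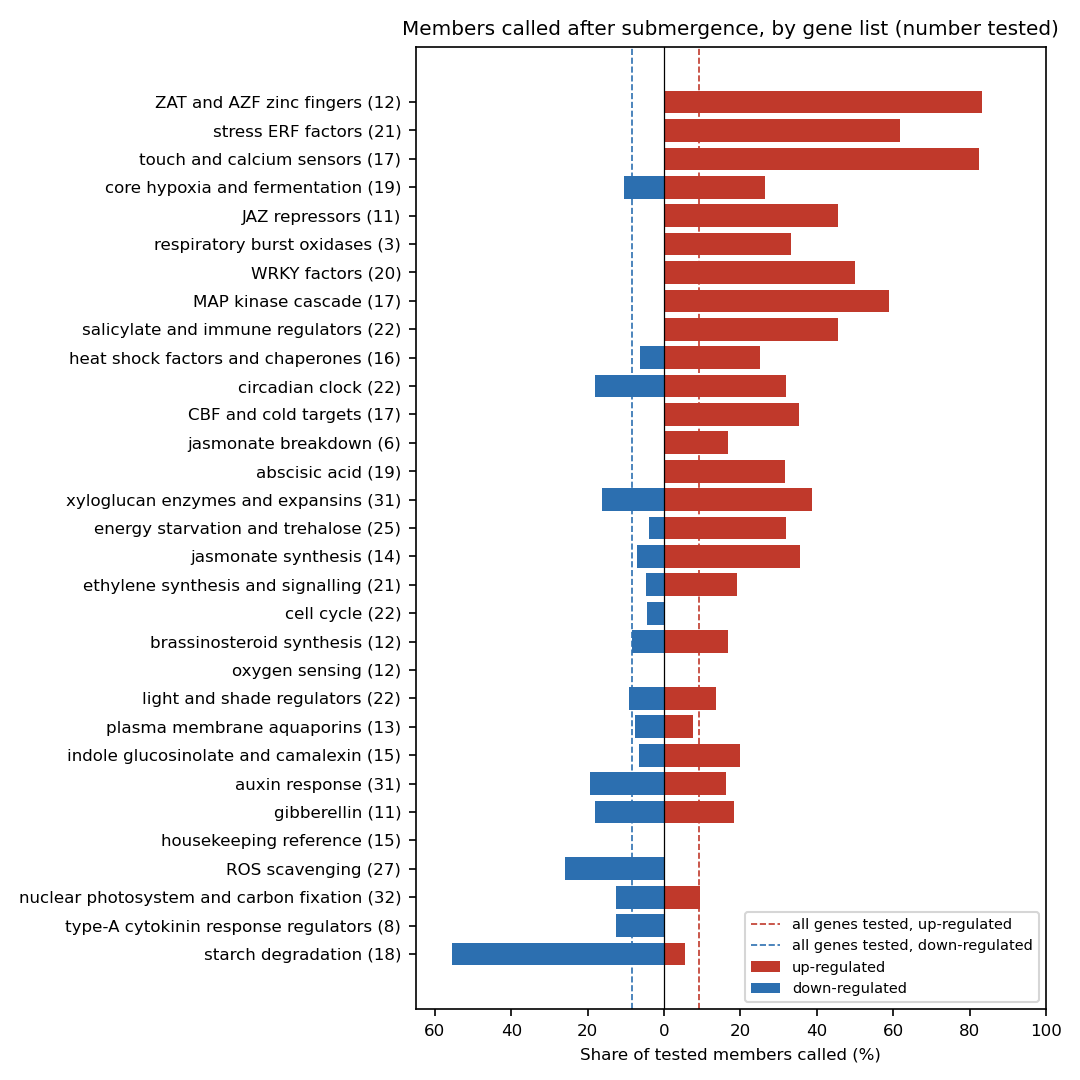
Share of the tested members of each of 31 gene lists that was up-regulated (red, to the right of 0) or down-regulated (blue, to the left of 0) after submergence, with the number tested in parentheses and lists ordered by median log2 fold change. Dashed lines mark the 9.03% and 8.45% of all tested genes called up and down, and the touch, ZAT and ERF lists stand highest while starch degradation stands lowest.

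Jasmonate genes rose in part of the pathway. Of 14 synthesis genes tested, 5 rose and 1 fell (median log2 fold change 0.15). LOX4 and LOX3, lipoxygenases that open the pathway, were at 6.21, 4.31 and 5.42 FPKM in the control and 30.6, 70.1 and 88.4 FPKM in the submergence samples for LOX4 and 11.9, 10.1 and 9.50 FPKM in the control and 28.0, 27.4 and 89.1 FPKM in the submergence samples for LOX3. Both were highest in submergence 3, where LOX3 stood far above the other submergence samples (log2 fold change 3.43, standard error 0.37, adjusted p = 0.00206 for LOX4 and log2 fold change 1.96, standard error 0.43, adjusted p = 0.024, and not called without control 1, 2 or 3 at 0.0688 to 0.0916 for LOX3). AOC3, an allene oxide cyclase, was at 3.11, 2.47 and 2.89 FPKM in the control and 19.9, 12.6 and 37.8 FPKM in the submergence samples, with the same sample on top (log2 fold change 2.87, standard error 0.36, adjusted p = 0.0033). OPR3, the reductase of the peroxisomal steps, was at 101, 107 and 111 FPKM in the control and 152, 96.8 and 295 FPKM in the submergence samples and did not pass, and submergence 2 lay below all controls. LOX2, the most highly expressed gene of the list, fell, with 1212, 1187 and 1391 FPKM in the control and 403, 507 and 945 FPKM in the submergence samples (log2 fold change -1.12, standard error 0.29, adjusted p = 0.0402, and not called without control 1, 2 or 3 or submergence 1 or 2 at 0.0511 to 0.138), and kept this call in 5 of 14 refits. Without control 1, control 2, control 3, submergence 1 or submergence 3 in turn, 4, 3, 3, 5 and 5 members of the list rose and 0, 0, 0, 0 and 4 fell.

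The JAZ repressors, which block jasmonate responses and are themselves induced by the hormone, had 5 risen and 0 fallen members of 11 tested (median 0.99). JAZ1 (TIFY10A) was at 40.4, 34.6 and 34.6 FPKM in the control and 137, 201 and 322 FPKM in the submergence samples (log2 fold change 2.504, standard error 0.28, adjusted p = 0.00223), and JAZ7 (TIFY5B), JAZ5 (TIFY11A), JAZ8 (TIFY5A) and JAZ6 (TIFY11B) rose as well (log2 fold changes 2.86, 2.30, 2.00 and 1.42, with JAZ8 not called without control 2 or 3 at 0.0776 to 0.0779). JAZ2 (TIFY10B) stood at 30.9 ± 0.697 and 31.5 ± 7.92 FPKM and did not pass. Without submergence 2, 8 of the list rose and 0 fell. Of the 10 risen genes of jasmonate synthesis and the JAZ family, 9 were highest in submergence 3 and 0 in submergence 2. CYP94C1, described above, was the only one of 6 hormone breakdown genes to pass, and CYP94B3 was at 6.41 ± 1.74 and 21.0 ± 15.2 FPKM (adjusted p = 0.0725).

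Salicylate and immune regulators had 10 of 22 tested members up, 0 down and a median log2 fold change of 0.60. CBP60G, a calmodulin-binding transcription factor, was at 13.5, 10.4 and 11.4 FPKM in the control and 35.9, 66.0 and 53.1 FPKM in the submergence samples (log2 fold change 2.09, standard error 0.22, adjusted p = 0.00189), and SARD1, its close relative, at 5.63, 4.34 and 5.42 FPKM in the control and 15.2, 18.6 and 14.8 FPKM in the submergence samples (log2 fold change 1.64, standard error 0.14, adjusted p = 0.00104). The groups were separate in each gene. ICS1 (EDS16), the salicylate synthesis gene they are known to activate, was at 9.69, 8.89 and 8.14 FPKM in the control and 10.7, 10.7 and 11.7 FPKM in the submergence samples and did not pass (adjusted p = 0.0761), and the exporter EDS5 (DTX47) and the conjugating enzyme PBS3 rose (log2 fold changes 1.00 and 1.07), though EDS5 was not called without control 1, 2 or 3 (0.0552 to 0.1004) nor PBS3 without control 2 or 3 or submergence 2 or 3 (0.0544 to 0.122). PAL2 of the phenylpropanoid route rose from 72.4 ± 6.01 to 114 ± 22.1 FPKM and was not called without control 1, 2 or 3 or submergence 1 or 3 (0.0515 to 0.114), while PAL1 was at 29.4 ± 1.68 and 45.2 ± 11.4 FPKM (adjusted p = 0.0593). AIM1, an enzyme of peroxisomal beta-oxidation, was at 73.6, 67.4 and 65.8 FPKM in the control and 52.8, 70.4 and 59.9 FPKM in the submergence samples, with overlapping groups (log2 fold change -0.18). Leaving out control 2 or control 3 in turn gave 5 and 6 rises and 1 and 0 falls in the list. Intracellular immune receptors of the TIR-NBS-LRR type, grouped by product name after the values had been seen, had 29 of 64 tested genes up and 1 down. The shares were 45.3% and 1.56%, against 9.03% and 8.45% of all genes. With single samples left out, 21 to 32 of these receptor genes rose and 1 fell each time.

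Genes of the low-oxygen response did not move as one group. Of 19 tested members of the core hypoxia and fermentation list 5 rose and 2 fell, against 9.03% and 8.45% of all genes, although the median log2 fold change was 1.22. The risen members were CML38, SRO5, LBD41, HRE1 and RBOHD, of which CML38 is also a calcium sensor and RBOHD the oxidase described above. HRE1, an ERF factor of the low-oxygen group, was at 6.11, 7.70 and 9.49 FPKM in the control and 19.8, 24.4 and 24.1 FPKM in the submergence samples (log2 fold change 1.56, standard error 0.17, adjusted p = 0.00206), and LBD41, a transcription factor used as a marker of hypoxia, at 7.87, 5.88 and 9.47 FPKM in the control and 48.5, 27.5 and 18.4 FPKM in the submergence samples (log2 fold change 1.92, standard error 0.35, adjusted p = 0.0118, and not called without control 2 at 0.0528). In both the groups were separate, but LBD41 was highest in submergence 1. HRE2 (ERF071), the closest relative of HRE1, fell from a mean of 2.00 ± 0.25 to 0.837 ± 0.245 FPKM (not called without control 1, 2 or 3 at 0.0582 to 0.0951). PDC2, a pyruvate decarboxylase, also fell, from 43.4 ± 7.41 to 24.1 ± 5.24 FPKM (log2 fold change -0.85, standard error 0.19, adjusted p = 0.0251, and not called without control 1 or 2 at 0.0862 to 0.0888). Without control 1, control 2, control 3, submergence 2 or submergence 3 in turn, 5, 4, 5, 5 and 8 members of the list rose and 0, 0, 1, 4 and 2 fell.

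The fermentation genes themselves differed from one submergence sample to the next. PDC1 was at 0.16, 0.08 and 0.25 FPKM in the control and 3.15, 0.77 and 0.09 FPKM in the submergence samples. Submergence 1 was far above the controls and submergence 3 within their range (log2 fold change 1.68, standard error 0.98, adjusted p = 0.288). ADH1 was at 3.79, 3.95 and 4.36 FPKM in the control and 8.14, 5.06 and 2.57 FPKM in the submergence samples, again highest in submergence 1, and here submergence 3 was below every control (log2 fold change 0.23, standard error 0.37, adjusted p = 0.717). The same order was seen in the plant cysteine oxidase gene PCO1, at 1.14, 0.61 and 0.96 FPKM in the control and 7.13, 3.2 and 1.17 FPKM in the submergence samples, and in the hemoglobin gene AHB1 (HB1), at 1.61, 1.04 and 1.1 FPKM in the control and 7.55, 2.87 and 1.21 FPKM in the submergence samples. It was also seen in ACO1 of ethylene synthesis, at 0.66, 0.14 and 0.33 FPKM in the control and 6.35, 1.35 and 0.08 FPKM in the submergence samples, and in HRA1 (AT3G10040), a trihelix factor that restrains the response, at 2.48, 1.43 and 1.77 FPKM in the control and 8.88, 3.79 and 1.33 FPKM in the submergence samples. None of these 6 genes passed. AT4G17260, annotated as a lactate/malate dehydrogenase family protein, was at 7.12, 6.23 and 5.82 FPKM in control and 7.72, 5.92 and 5.28 FPKM in submergence, and SUS1 (sucrose synthase) and ALAAT1 (alanine aminotransferase) did not pass either. Without submergence 3 the list had 8 risen members and PDC1 was called (log2 fold change 2.73, adjusted p = 0.0478), and without submergence 1 the median of the list was 0.28 in place of 1.22 and the fold change of ADH1 was negative (-0.15).

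Markers of the shoot apex had the same order as these genes across the submergence samples. Across the controls, STM, KNAT1 and ANT were highest in control 1 and lowest in control 2, as were PCO1, AHB1, ACO1 and HRA1. PDC1 and ADH1 were instead highest in control 3. STM, which defines the shoot meristem, was at 1.28, 0 and 1.05 FPKM in the control and 4.95, 2.31 and 0.05 FPKM in the submergence samples. KNAT1 was at 1.63, 0.03 and 0.85 FPKM and 4.5, 2.07 and 0.01 FPKM, and ANT at 8.43, 5.52 and 5.64 FPKM and 17.0, 9.83 and 4.47 FPKM. Each was highest in submergence 1 and lowest of the submergence samples in submergence 3, where KNAT1 and ANT were below every control, so the groups overlapped and none passed. Of the 11 apex and flower markers, 3 were expressed enough to be tested, CLV3 was listed at 0 in all 6 samples and WUS did not exceed 0.07 FPKM. The summed level of the list was 5.97 to 12.1 FPKM in the controls and 4.83 to 27.0 FPKM in the submergence samples. The part of apex tissue in the values of the fermentation genes was not tested, and fewer cells of a type cannot be told apart from less RNA per cell in pooled rosettes.

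**Figure D4:**
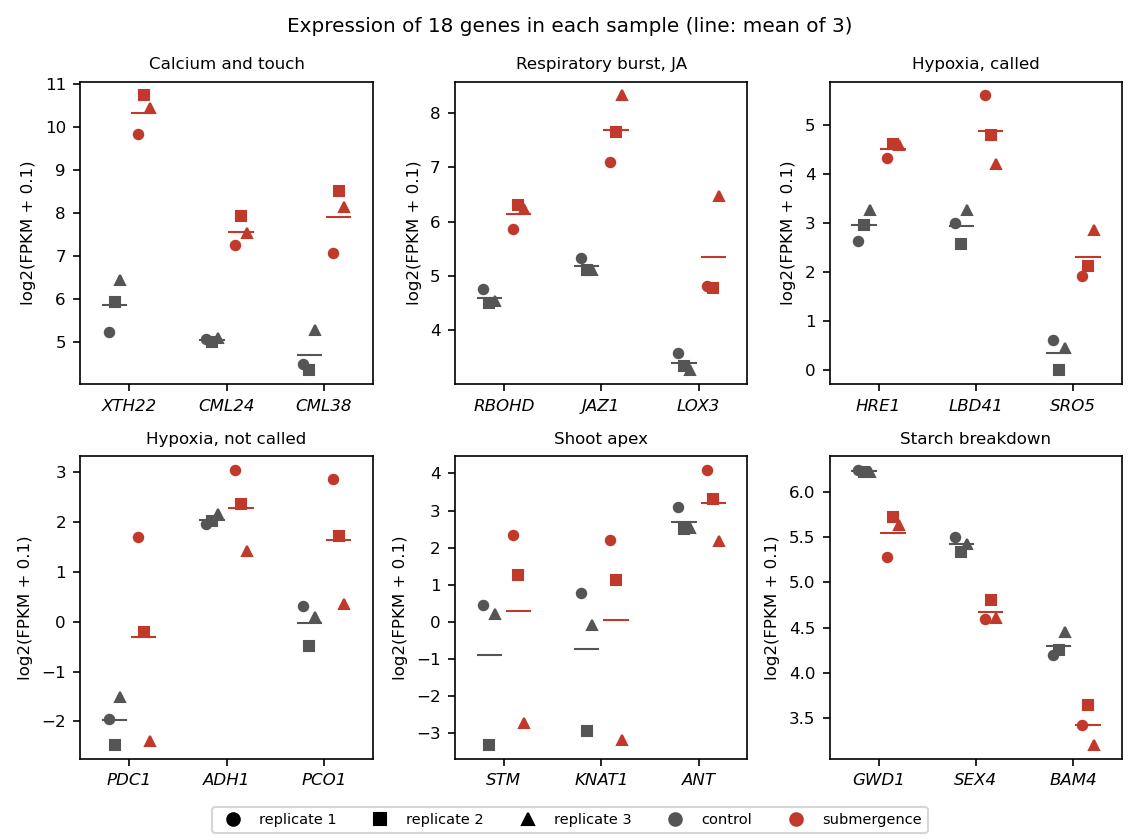
Expression of 18 genes as log2(FPKM + 0.1) (vertical axes) in the control (grey) and submergence (red) samples, with a marker shape for each replicate number and lines for the mean of 3 samples. The touch, burst and called hypoxia genes separate the groups, whereas PDC1, ADH1 and PCO1 are highest in submergence 1 and lowest of the submergence samples in submergence 3, as STM, KNAT1 and ANT are.

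The sensing machinery for oxygen showed no called change. Of 12 tested genes 0 rose and 0 fell by limma, with 0 upward and 2 downward at an unadjusted p under 0.05 and a median log2 fold change of 0.02. RAP2.2 was at 51.5, 52.7 and 58.4 FPKM in the control and 52.8, 60.9 and 59.0 FPKM in the submergence samples, with overlapping groups (log2 fold change 0.09, standard error 0.09, adjusted p = 0.54). RAP2.3 was at 97.9 ± 2.27 and 107 ± 22.2 FPKM and RAP2.12 at 75.7 ± 6.38 and 71.0 ± 1.85 FPKM. These proteins are known to be controlled by their stability, which transcript levels do not show.

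In ethylene synthesis the rises were at its first committed step. Of 21 genes of ethylene synthesis and signalling 4 rose and 1 fell (median 0.12), and the 4 were ACC synthases. The shares of the list were 19.0% and 4.76%, against 9.03% and 8.45% of all genes. ACS8 was at 0.43, 0.49 and 1.00 FPKM in the control and 3.55, 7.12 and 8.47 FPKM in the submergence samples (log2 fold change 3.12, standard error 0.40, adjusted p = 0.00356), and ACS6 at 11.3, 7.03 and 9.60 FPKM in the control and 23.8, 37.3 and 24.9 FPKM in the submergence samples (log2 fold change 1.61, standard error 0.23, adjusted p = 0.00493). ACS11 and ACS7 rose from means of 2.91 ± 0.516 to 21.2 ± 10.2 and 0.213 ± 0.17 to 1.56 ± 0.429 FPKM. In all 4 the submergence samples were above the controls. The oxidase ACO4 (199 ± 24.9 and 217 ± 30.0 FPKM) and the transcription factor EIN3 (107 ± 3.71 and 109.6 ± 8.13 FPKM) did not pass, and EIN2, a membrane protein of the signalling route, fell (log2 fold change -0.51, standard error 0.10, adjusted p = 0.014, and not called without control 1 or 2 at 0.052 to 0.0554).

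Other hormone groups changed at points of turnover and perception. For abscisic acid 6 of 19 tested genes rose and 0 fell (31.6% and 0%, against 9.03% and 8.45% of all genes, median 0.31). They were the catabolic genes CYP707A3 and CYP707A1 (log2 fold change 1.64), the receptor genes PYL5 (1.97), PYL6 (1.68) and PYL4 (0.97) and the phosphatase gene PP2CA (1.65). Without submergence 1, 11 of the list rose and 1 fell. For gibberellin 2 of 11 rose and 2 fell (18.2% each). The risen genes GA2OX6 (2.13, 1.75 and 1.77 FPKM in the control and 9.16, 8.63 and 24.4 FPKM in the submergence samples) and GA2OX2 (2.38, 2.21 and 1.81 FPKM in the control and 7.78, 9.49 and 12.8 FPKM in the submergence samples) encode enzymes that inactivate the hormone. The fallen genes GID1A (20.5, 19.8 and 25.2 FPKM in the control and 10.46, 11.6 and 9.89 FPKM in the submergence samples) and GID1C (log2 fold change -0.64) encode its receptors. None of these 4 genes had overlapping groups, and each kept its call in all 14 refits.

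Auxin response genes were called in both directions, IAA and SAUR genes included. Of 31 tested 5 rose and 6 fell (16.1% and 19.4%, against 9.03% and 8.45% of all genes), with a median log2 fold change of -0.05. The falls were the small SAUR genes SAUR16 (AT4G38860), SAUR21, SAUR14 (AT4G38840) and SAUR50 and the repressor genes IAA29 and IAA5. Of these, SAUR14 was not called without control 1, 2 or 3 (0.0514 to 0.0736), and SAUR50 and IAA5 were not called when any single sample other than submergence 1 was left out (0.0582 to 0.1401 and 0.0807 to 0.134). SAUR16 was at 9.06, 11.9 and 9.81 FPKM in the control and 1.92, 1.75 and 1.40 FPKM in the submergence samples, with a wide gap between the groups (log2 fold change -2.53, standard error 0.16, adjusted p = 0.000657). IAA29, a shade-responsive member, was at 1.73, 1.65 and 1.40 FPKM in the control and 0.34, 0.31 and 0.19 FPKM in the submergence samples (log2 fold change -2.17, standard error 0.28, adjusted p = 0.0036). The risen genes included IAA3 (SHY2), from 65.3 ± 7.84 to 114 ± 14.9 FPKM, and the auxin efflux carrier gene PIN3, from 56.5 ± 8.09 to 81.9 ± 6.34 FPKM (PIN3 was not called without control 1 or 2 at 0.0813 to 0.0868). Leaving out control 1, control 2, control 3 or submergence 2 in turn gave 4, 1, 2 and 2 rises and 3, 3, 3 and 5 falls in the list. Over all genes with SAUR in their product name, a grouping also made after the values had been seen, 6 of 47 tested rose and 10 fell (12.8% and 21.3%). The rises were 5, 4, 6, 8, 7 and 6 and the falls 5, 5, 4, 17, 6 and 6 without control 1, 2 and 3 and submergence 1, 2 and 3 in turn. Among type-A response regulators of cytokinin, 0 of 8 rose and 1 fell (0% and 12.5%). The fallen gene, ARR6, was at 22.8, 25.3 and 10.1 FPKM in the control and 8.26, 2.40 and 4.39 FPKM in the submergence samples, and its groups were separate (log2 fold change -1.99, standard error 0.50, adjusted p = 0.0354, and not called without control 1 or 2 or submergence 2 or 3 at 0.0794 to 0.127). It overlaps AT5G62910 of the opposite strand by 348 bp, which fell as well (18.3 to 12.9 FPKM, log2 fold change -0.49). ARR7 was at 55.6, 46.3 and 16.1 FPKM in the control and 37.1, 11.3 and 23.5 FPKM in the submergence samples, with overlapping groups (adjusted p = 0.451).

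Cell wall genes were called in both directions. Of 31 xyloglucan enzymes and expansins tested 12 rose and 5 fell. All 12 risen members of this list were XTH genes, and XTH23 (log2 fold change 3.81), XTH33 (3.83) and XTH16 (2.38) followed XTH18 and XTH22. XTH4, already abundant in the controls, was at 282, 293 and 248 FPKM in the control and 441, 592 and 449 FPKM in the submergence samples (log2 fold change 0.84, standard error 0.13, adjusted p = 0.00787). The 5 fallen members were XTH7 and the expansin genes EXPA1, EXPA5, EXPA9 and EXPA10, whose products loosen walls during cell expansion. EXPA1 was at 99.4, 100.5 and 62.1 FPKM in the control and 53.9, 32.1 and 32.1 FPKM in the submergence samples (log2 fold change -1.157, standard error 0.26, adjusted p = 0.0255, and not called without control 1 or 2 or submergence 2 or 3 at 0.0743 to 0.0994), without overlap between the groups. Without control 1, control 2, control 3 or submergence 1 in turn, 9, 8, 7 and 15 members of the list rose and 2, 1, 3 and 8 fell. XTH7 was not called without control 1, 2 or 3 (0.0714 to 0.104), EXPA9 without control 2 or 3 (0.0613 to 0.0673) or EXPA10 without control 1 or 2 (0.0553 to 0.056). Over all 17 tested genes with expansin in their product name, grouped after the values had been seen, 3 rose and 5 fell. The risen genes EXLA2, EXLA3 and EXLA1 are expansin-like (log2 fold changes 3.14, 3.14 and 2.74) and were not in the list above. EXLA1 was at 29.0, 71.0 and 38.6 FPKM in the control and 174, 409 and 334 FPKM in the submergence samples, without overlap. Leaving out control 1, control 2, submergence 1 or submergence 2 in turn gave 3 rises each and 2, 1, 8 and 3 falls by product name. Plasma membrane aquaporins had 1 of 13 up (PIP2-7, log2 fold change 0.82) and 1 down (PIP2-2, -0.33, and not called without control 1, 2 or 3 at 0.0557 to 0.0954). Both aquaporin shares were 7.69%, near the 9.03% and 8.45% of all genes.

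Starch degradation had the largest share of fallen members of all lists, with 10 of 18 down and 1 up (median log2 fold change -0.61). Plants break down leaf starch at night through phosphorylation of the granule surface, its removal by phosphatases and attack by amylases. GWD1, the glucan water dikinase that begins this, was at 75.8, 74.5 and 74.8 FPKM in the control and 38.9, 52.8 and 49.6 FPKM in the submergence samples (log2 fold change -0.68, standard error 0.12, adjusted p = 0.0104). The 3 controls were nearly equal and all submergence samples were below them. SEX4 (DSP4), a phosphoglucan phosphatase, was at 45.3, 40.5 and 42.9 FPKM in the control and 24.1, 27.9 and 24.3 FPKM in the submergence samples (log2 fold change -0.75, standard error 0.09, adjusted p = 0.00264). BAM4 (-0.88 on the log2 scale), LSF2 (-0.89), PHS2 (-0.70), ISA3 (-0.69), DPE1 (-0.64), PWD (-0.57), DPE2 (-0.56) and LSF1 (-0.33) fell too. Of these, ISA3 was not called without control 1 or 2 or submergence 3 (0.0578 to 0.0636), PHS2 without control 1 or 2 (0.0541 to 0.0572) or LSF1 without control 1, 2 or 3 or submergence 1 or 2 (0.0507 to 0.1295). BAM9, a beta-amylase homolog without catalytic activity, rose, with 59.5, 57.0 and 60.3 FPKM in the control and 219, 126 and 263 FPKM in the submergence samples (log2 fold change 1.71, standard error 0.25, adjusted p = 0.00565). BAM3, the main chloroplast beta-amylase gene, was at 761 ± 112 and 883 ± 224 FPKM and did not pass (adjusted p = 0.545). Under median-of-ratios and quantile scaling the median of this list was -0.58 and -0.65, and leaving out single samples gave 7 to 11 falls.

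Genes of sugar signalling rose in part. Of 25 energy and trehalose genes 8 rose and 1 fell, and 4 of the 8 were trehalose phosphate phosphatases. TPPG was at 2.77, 2.94 and 3.44 FPKM in the control and 9.96, 9.05 and 20.3 FPKM in the submergence samples (log2 fold change 1.98, standard error 0.30, adjusted p = 0.00612) and TPPA at 14.6, 19.3 and 19.0 FPKM in the control and 50.6, 44.1 and 58.5 FPKM in the submergence samples (log2 fold change 1.53, standard error 0.15, adjusted p = 0.00132). Submergence 3 was the highest for both, and the groups were separate. DIN10 (from 231 ± 22.8 to 416 ± 111 FPKM), a dark-induced gene, rose but was not called without control 1, 2 or 3 or submergence 2 or 3 (0.0886 to 0.1202), whereas the starvation marker ASN1 was at 289.9 ± 24.2 and 337 ± 52.7 FPKM and did not pass. The list had 4, 4, 3 and 4 risen and 1, 1, 1 and 1 fallen members without control 1, control 2, control 3 or submergence 3, in that order.

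Clock genes were called in both directions. Of 22 tested 7 rose and 4 fell (31.8% and 18.2%, against 9.03% and 8.45% of all genes). LHY and CCA1, the morning-expressed MYB factors, were at 104, 104 and 114 FPKM in the control and 283, 153 and 228 FPKM in the submergence samples for LHY and 99.5, 87.5 and 93.2 FPKM in the control and 215, 134 and 173 FPKM in the submergence samples for CCA1. Both were separate from the controls and highest in submergence 1 (log2 fold change 1.00, standard error 0.21, adjusted p = 0.0192, and not called without control 1, 2 or 3 or submergence 3 at 0.0569 to 0.0769 for LHY and log2 fold change 0.87, standard error 0.17, adjusted p = 0.0138, and not called without control 2 or 3 at 0.0582 to 0.0628 for CCA1). All 4 LNK coactivator genes and RVE4 rose with them, LNK2 by 0.93 and LNK4 by 1.01 on the log2 scale, though LNK1 was not called when any single sample other than submergence 1 was left out (0.0501 to 0.1095), nor LNK3 without control 2 (0.0568) or RVE4 without control 1, 2 or 3 or submergence 3 (0.0704 to 0.116). The fallen genes were FKF1 (ADO3, -1.53), PRR5 (APRR5, -0.79), ELF3 (-0.39) and ZTL (-0.27), which act later in the day or in the evening. None of these 4 falls held for every sample left out. FKF1 and ELF3 were not called without control 1 or 2 (0.0621 to 0.0622 and 0.0613 to 0.0652), PRR5 without control 1, 2 or 3 or submergence 3 (0.0774 to 0.128), and ZTL when any single sample other than submergence 1 was left out (0.1069 to 0.154). Leaving out control 1, control 2, control 3 or submergence 3 in turn gave 4, 2, 3 and 4 rises and 0, 0, 2 and 2 falls in the list. The times of day at which the groups were sampled are not given in the sources used here.

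The listed nuclear photosynthesis genes had shares of calls near those of all genes. Of 32 nuclear photosystem and carbon fixation genes 3 rose and 4 fell, or 9.38% and 12.5% against 9.03% and 8.45% (median -0.23, and -0.01 after quantile normalization). LHCB2.1 and LHCB2.2, near-identical copies of a photosystem antenna gene, rose, LHCB2.1 with 746, 722 and 662 FPKM in the control and 1072, 1171 and 1023 FPKM in the submergence samples (log2 fold change 0.62, standard error 0.10, adjusted p = 0.00679). PSAG of photosystem I fell, with 2056, 2332 and 2096 FPKM in the control and 1490.1, 1593 and 1520.4 FPKM in the submergence samples (log2 fold change -0.49, standard error 0.10, adjusted p = 0.0176, and not called without control 2 or 3 at 0.0712 to 0.0884). RBCS-1A, the main Rubisco small subunit gene and the most abundant of the mesophyll markers, was at 7918, 9596 and 8586 FPKM in the control and 8010.0, 6105 and 7261 FPKM in the submergence samples, and it did not pass. Without control 1, control 2, control 3, submergence 2 or submergence 3 in turn, 2, 2, 2, 2 and 4 members of the list rose and 1, 0, 0, 2 and 2 fell. By annotation, 4 of 195 tested genes of the thylakoid membrane rose and 49 fell (median -0.24). These shares were 2.05% and 25.1%, against 9.03% and 8.45% of all genes. Leaving out control 1, 2 or 3 or submergence 1, 2 or 3 in turn gave 23, 8, 11, 69, 20 and 29 falls. Over all genes the same refits gave 650, 489, 577, 2187, 1032 and 1008 falls. Of 83 tested genes of the chloroplast genome 0 rose and 5 fell (0% and 6.02%). The falls were 3, 1, 2 and 8 without control 1, control 2, control 3 or submergence 1.

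Among enzymes and transporters of detoxification the share called up was near that of all genes, and the share called down was larger. UDP-glycosyltransferases, many of which attach sugars to hormones and other small molecules, were grouped by product name after the values had been seen. Of 92 tested genes 8 rose (8.70%) and 21 fell (22.8%), against 9.03% and 8.45% of all genes. Leaving out control 1, control 2, control 3 or submergence 3 in turn gave 3, 2, 3 and 5 rises and 9, 10, 8 and 14 falls. UGT74E2, which acts on the auxin indole-3-butyric acid, was among the 12 largest falls of the data, at 52.5, 40.4 and 63.9 FPKM in the control and 7.43, 14.4 and 12.4 FPKM in the submergence samples with separate groups (log2 fold change -2.21, standard error 0.27, adjusted p = 0.00291). Genes of MATE transporters, grouped in the same manner, had 4 of 37 up (10.8%), EDS5 (DTX47) among them, and 9 down (24.3%). They had 2, 2, 2 and 3 rises and 3, 3, 4 and 5 falls without control 1, control 2, control 3 or submergence 2. The MATE genes DTX3 and DTX4, close copies of each other, also belonged to the 12 (log2 fold change -2.19, standard error 0.18, adjusted p = 0.000922 for DTX3 and log2 fold change -2.15, standard error 0.50, adjusted p = 0.0272, and not called without control 1, 2 or 3 or submergence 2 at 0.0515 to 0.104 for DTX4). Of the steepest falls, AT1G30250, an uncharacterized protein, was at 34.7, 39.4 and 31.5 FPKM in the control and 1.82, 1.8 and 1.68 FPKM in the submergence samples (log2 fold change -4.24, standard error 0.11, adjusted p = 3.24e-05). The next gene on chromosome 1, AT1G30260, lies 3263 bp away on the other strand and was at 56.7, 66.4 and 65.5 FPKM in the control and 15.1, 9.90 and 10.2 FPKM in the submergence samples (log2 fold change -2.44, standard error 0.17, adjusted p = 0.000753). Both were separate from the controls and had no annotated gene between them. ERF061, MARD1, AT4G12735 and AT5G66052 completed the list together with SAUR16, ARR6 and the microRNA precursor gene MIR167A. MIR167A was listed at 12.04, 9.50 and 30.6 FPKM in the controls and at 0 in every submergence sample, so no fold is given.

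The 3 submergence samples differed from each other more than the controls did. The median SD of log2 values over up-regulated genes was 0.27 in submergence and 0.15 in control, and over down-regulated genes it was 0.12 and 0.09. Submergence 1 was the lowest of the 3 in 1142 of 1698 up-regulated genes and submergence 3 the highest in 870. By list, submergence 1 had the smallest median rise for the touch list (1.604, against 2.88 and 2.26) and the MAP kinase list (0.45, against 0.97 and 1.03) but the largest for the hypoxia list (1.36, against 1.162 and -0.02). Submergence 3 had the largest for the JAZ list (1.77, against 0.76 and 0.43).

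**Figure D5:**
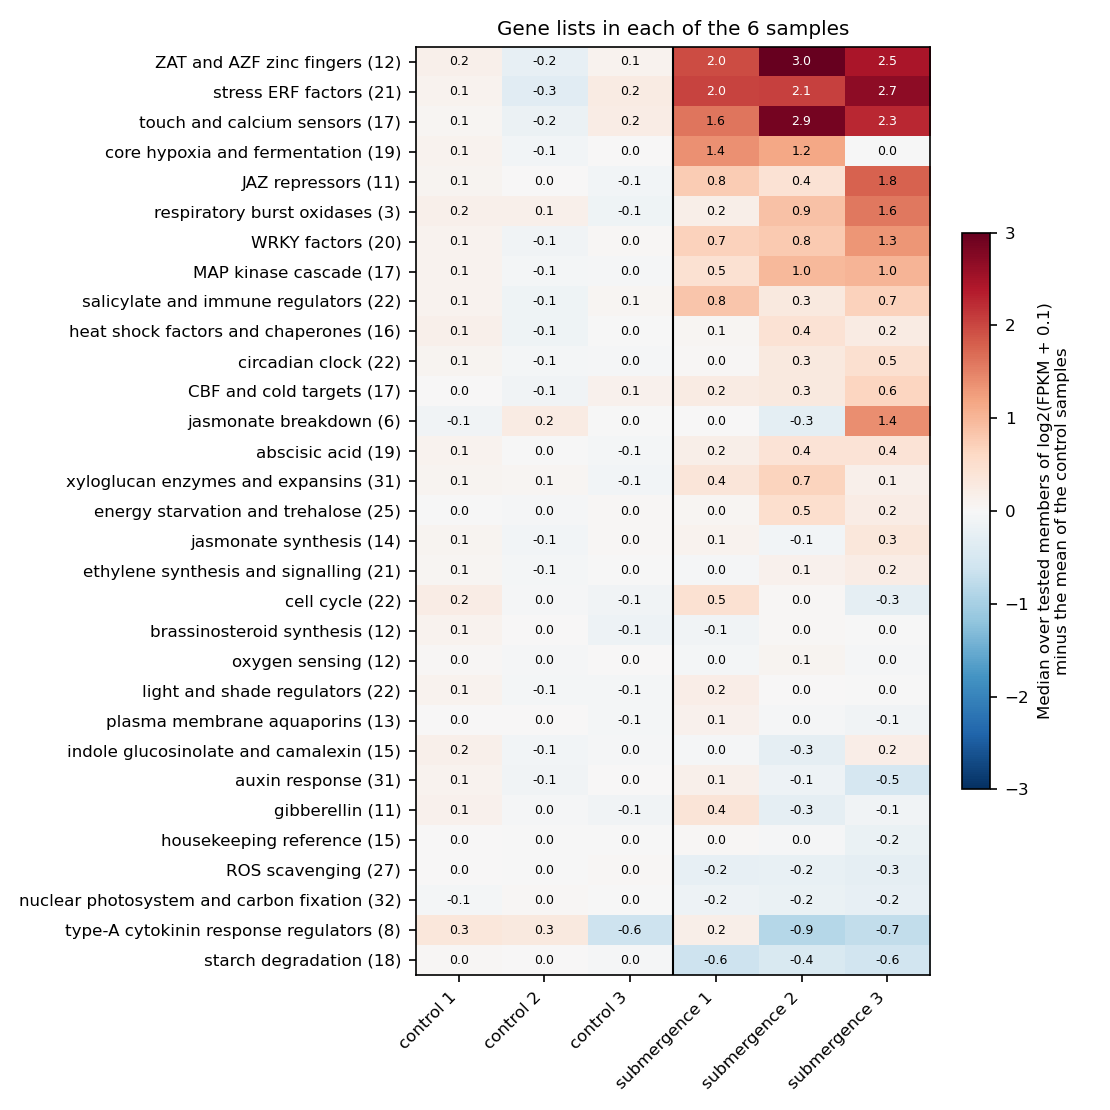
Median over the tested members of each of 31 gene lists (rows, number tested in parentheses) of log2(FPKM + 0.1) minus the mean of the control samples, in each of the 6 samples (columns). Colour and number give the median, red above and blue below the control mean. The touch, ZAT and ERF lists are raised in all 3 submergence samples, while the hypoxia list is raised in submergence 1 and 2 only and the JAZ list most in submergence 3.

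Markers of the cell types of a rosette were compared next. Summed mesophyll markers ranged from 26240 to 30879 FPKM in control and from 22268 to 29033 FPKM in submergence (exact permutation test, two-sided p = 0.2, where 0.1 is the smallest possible). Root markers summed to 61.5 to 124 FPKM and 85.4 to 141 FPKM, most of it from BGLU23, with the root hair genes EXPA7, EXPA18 and RHD6 (BHLH83) listed at 0 in all 6 samples. Guard cell markers had 2 of 7 up (KAT1 and OST1) and 1 down (MYB60), and vascular markers had 0 of 8 called by limma (1 upward and 2 downward at an unadjusted p under 0.05). The summed vascular markers were at 168 to 229 FPKM in control and 119 to 158 FPKM in submergence, without overlap (exact permutation test, two-sided p = 0.1). Reference genes for normalization had 0 of 15 called by limma (1 upward and 2 downward at an unadjusted p under 0.05), with ACT2 at 468 ± 22.7 and 489 ± 27.3 FPKM.

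Flooding with flowing water shared the same control samples. By the direct limma comparison of flooding with submergence 0 of 18864 genes passed, with 2780 at an unadjusted p under 0.05. With all 9 samples in one fit 227 were called. The comparison took no account of replicate number, and whether equal numbers pair these groups was not tested. The count of 0 does not show that the stresses act alike. Mean FPKM under flooding, from 3 samples, was 147 for RBOHD, 1506 for XTH22, 123 for CYP94C1 and 61.4 for AOX1A. The fermentation genes varied under flooding as well, with PDC1 at 3.74, 0.75 and 0.05 FPKM and STM at 2.11, 3.28 and 0.02 FPKM in flooding 1, 2 and 3.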

How the data were processed

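RNA was extracted from 3 independent pools of rosettes per group, and 6 of the 9 samples were used for the main comparison. Per the paper's methods the reads were mapped to TAIR10 with STAR and counted on genes with featureCounts, while the deposited table is named after RSEM, so the tool behind its values is not settled. The authors deposited FPKM with 2 decimals, which they made from mapped reads by total counts and transcript length, and the submitters' processing notes name DESeq2 1.20.0 for the comparisons of the study. FPKM are not counts, so the count test of the study could not be used and no counting interval is given. The paper reports the input and mapped reads of its libraries, which were not used here. The 6 columns summed to 752249 to 786474 FPKM. A further deposited column of gene length holds the genomic span and was not used as a transcript length. Columns named by stress number were assigned to submergence and flooding through the deposited labels and the panel headings of the study, and 0 columns of per-sample values were left out as unassigned.

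Genes with a mean of at least 0.5 FPKM were tested on log2(FPKM + 0.1) with limma 3.58.1 (lmFit and eBayes with trend, R 4.3.3), two-sided, with Benjamini-Hochberg adjustment over all genes tested and a threshold of 0.05. Summed markers were compared with an exact permutation test. Members and gene lists were chosen with earlier results of these data known, and groups by product name were made after the values had been seen. Named genes were the 12 largest rises and 12 largest falls without overlap and with at least 5 FPKM in either group, the largest called rise, largest called fall and most expressed member of each list, the first members of each list, and genes the study names for submergence. A few further members are named where a group is described, and these were chosen after their values were seen. Promoters were read from the RefSeq genome (TAIR10.1), in which 32532 of 32548 matched genes had the coordinates of the deposited table. Alternatives were a pseudocount of 1, no filter, a mean of at least 2 FPKM, median-of-ratios and quantile scaling, eBayes without trend, all 9 samples in one fit, replicate number as a block, a minimum fold of 2 and each sample left out in turn.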

Additional observations from a re-analysis of the deposited data

Results flagged for a closer look

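TPS6, which encodes a trehalose phosphate synthase-like protein, and ZAT5, a zinc finger gene, had every submergence sample above and every flooding sample below the controls. They were found by searching the 213 named genes called for opposite movement, and the share of all genes with this pattern was not counted. TPS6 was at 16.6, 14.8 and 16.8 FPKM in the control, 20.6, 20.1 and 20.03 FPKM in the submergence and 14.3, 14.6 and 13.6 FPKM in the flooding samples. Its log2 fold change under submergence was 0.33 (0.3329, adjusted p = 0.031 by limma), and it was not called without control 1, 2 or 3 or submergence 2 or 3 (0.0663 to 0.121). ZAT5 was at 10.04, 10.2 and 9.70 FPKM in the control, 14.7, 15.1 and 13.1 FPKM in the submergence and 4.77, 8.54 and 5.99 FPKM in the flooding samples, and its log2 fold change under submergence was 0.51 (0.5133, adjusted p = 0.00954). The direct comparison of flooding with submergence by limma did not pass for either gene, with log2 differences of -0.51 for TPS6 and -1.18 for ZAT5 (adjusted p = 0.13 for each).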

How the results depend on the processing

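The 1698 rises and 1590 falls were 1490 and 1011 with a replicate block. Equal replicate numbers did not pair the control and submergence samples. The correlations of their deviations were 0.109, -0.151 and -0.017 for numbers 1, 2 and 3, and not every sample correlated best with its own number. A fold change of at least 2 gave 875 rises and 217 falls, and its share of rises among called genes was 80.1% in place of 51.6%. Quantile normalization gave 1562 rises and 2199 falls, a share of 41.5%. Leaving out single samples gave 890 to 2019 rises and 489 to 2187 falls. Without control 1, 2 or 3 there were 1097, 890 and 979 rises and 650, 489 and 577 falls, and without submergence 2 or 3 there were 1032 and 1008 falls. The comparison of flooding with submergence went from 0 to 227 called genes with all 9 samples in one fit. Of 213 named genes called, 0 to 30 lost their call under the other alternatives without a fold limit (0 of the 202 with a value at a mean of at least 2 FPKM), 73 with it and 10 to 82 when single samples were left out, and 0 of them changed direction. Of the genes not called, ADH1 had log2 fold changes of -0.15 (without submergence 1) to 0.66 (without submergence 3) when single samples were left out, in place of 0.23. The number of reads behind each value is not known, and what depth limits was not assessed. The cause of these changes was not tested.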

Other observations

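Of 316 tested genes with ribosomal protein in their product name 2 rose and 4 fell (0.633% and 1.27%, against 9.03% and 8.45% of all genes). Of 234 pentatricopeptide repeat genes, whose products process organelle RNA, 4 rose and 16 fell (1.71% and 6.84%). Leaving out single samples gave 0 to 40 falls for the ribosomal protein genes, with 40 without submergence 1 and 0 without control 1, 2 or 3. For the pentatricopeptide repeat genes the falls were 3, 4, 4, 26 and 9 without control 1, control 2, control 3, submergence 1 or submergence 3 and the rises 0 to 3. Cytochrome P450 genes had 10 of 122 up (8.20%, near the 9.03% of all genes) and 20 down (16.4%). Those counts were 6 and 10 without control 2 and 7 and 13 without control 3. These families were grouped by product name after the values had been seen and carry no test. By annotation, 141 of 258 tested genes of the response to chitin rose and 8 fell, with 103 to 165 rises and 4 to 14 falls when single samples were left out.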
